A study of Mus musculus with 217 samples.

Results

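The genes described here encode the proteins of the cytosolic ribosome. They were chosen by symbol (Rpl or Rps followed by a number, with an optional a or x, and Rplp0, Rplp1, Rplp2 and Rpsa, leaving out names marked as pseudogenes and 1 further matching gene that the rule excludes), which gave 75 of the 53619 genes in the count tables: 42 of the large (60S) subunit, 3 of the acidic stalk of that subunit and 30 of the small (40S) subunit. RNA was sequenced from pools of mouse granulosa cells, the somatic cells that surround the oocyte, and from single oocytes at metaphase of the second meiotic division. All mice had been primed with PMSG, a gonadotropin that drives follicle growth; oocytes were taken after a further hCG injection, and granulosa cells without it. The main mice were of a C57BL6/129 background, either wild type or labelled Tet2 knockout, Tet2 being a dioxygenase that oxidises methylated cytosine. They were 2 months old (young), 6 months old (middle-aged, oocytes only) or 10 months old (old). Resveratrol, a plant polyphenol, was given in the drinking water at 30 mg per L from 2 months of age, and controls received DMSO; young mice were controls only. Granulosa cells gave 6 groups of 3 pools: young wild type, young knockout, and old wild type and old knockout each with and without resveratrol. Oocytes of this background gave 10 groups of 14 to 20 cells. The labels do not describe the Tet2 allele, and they give 2 different numbers of granulosa cells per pool. A further 27 oocytes came from C57BL6 mice: 11 from middle-aged controls, 6 from old controls and 10 from old mice given resveratrol.

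A ribosomal protein is made in step with the others, because each subunit carries a single copy of nearly all of them and unassembled proteins are degraded. Their messenger RNAs begin with a run of pyrimidines at the cap (the 5′ TOP motif), through which the mTOR pathway and the RNA-binding protein LARP1 control their translation. Fully grown oocytes are transcriptionally silent and live on stored messages, whereas granulosa cells proliferate and transcribe actively until ovulation.

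The start-site sequences of the members that the granulosa results turn on are shown because these messages are described as beginning with a pyrimidine run. Not every annotated start holds one. Each is 30 bases, 15 on either side of the start annotated by RefSeq in GRCm38.p6, written 5′ to 3′ on the gene's own strand, with the longest run of at least 5 pyrimidines in capitals.
Rplp2 (chr7:141447636-141447665, + strand): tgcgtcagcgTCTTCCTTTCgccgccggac
Rpl38 (chr11:114668565-114668594, + strand): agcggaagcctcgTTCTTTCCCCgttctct
Rps27 (chr3:90213634-90213663, − strand): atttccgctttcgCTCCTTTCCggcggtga
Rps6 (chr4:86857353-86857382, − strand): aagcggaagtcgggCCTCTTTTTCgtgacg
Rps18 (chr17:33955651-33955680, − strand): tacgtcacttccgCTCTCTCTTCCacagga
Rps2 (chr17:24720048-24720077, + strand): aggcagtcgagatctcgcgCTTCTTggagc
Rps13 (chr7:116334176-116334205, − strand): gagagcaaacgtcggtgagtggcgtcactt
Rpl37a (chr1:72711245-72711274, + strand): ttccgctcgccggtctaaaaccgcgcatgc
Rpl41 (chr10:128549154-128549183, − strand): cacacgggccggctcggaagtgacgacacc
Rps28 (chr17:33824548-33824577, − strand): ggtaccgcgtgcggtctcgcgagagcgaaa
The first 6 hold such a run across or close to the annotated start, and the last 4 do not. Among the 55 members found in the RefSeq promoter table, 38 (69.1%) held a run of 5 or more pyrimidines in these 30 bases, against 47.5% of all 27025 promoters in the table. The first 5 bases from the annotated start were all pyrimidines in 15 members (27.3%), against 4.36% of all promoters. The letters CTTTCC, read on the gene's strand only, were in 8 members (14.6%) against 1.39% of promoters, and CTTTTC in 4 (7.27%) against 1.01%. CCGGAA, the core that ETS-family factors bind, was in the 300-base window on either strand in 28 members (50.9%) against 15.2%. The TATA-box letters TATAAA were in 5 members (9.09%) against 14.2% of promoters. These are matches of letters around annotated starts and show no binding.

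Total counts in the granulosa pools ran from 470647 to 20537935. The 3 young wild-type pools (639907, 470647 and 500603) and young knockout replicates 1 and 3 (749172 and 722075) were below 1000000, whereas young knockout replicate 2 held 11595710 and all old pools at least 5995491. In wild type, age and depth therefore cannot be told apart. Single oocytes held 3386039 to 8775154 counts, and C57BL6 oocytes with a group 3470831 to 11358927. Counts for Tet2 were not lower in the granulosa pools labelled knockout (8.27 to 21.5 counts per 1000000, CPM) than in wild type (4.56 to 16.7 CPM), so these pools are called by their label. Group medians of Tet2 in oocytes were 1.75 to 3.22 CPM in wild type and 0.692 to 1.38 CPM in knockout; the young wild-type oocytes also carry a knockout genotype tag, and their title was followed. The labels name no animal, so a p-value over pools measures only how far these pools differ among themselves, and part of that may be technical. All 14 granulosa markers, Inha and Fst among them, were detected in the pools.

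All 75 members were detected in all 18 granulosa pools, and their summed share of counts was higher in the old pools than in the young. Old wild-type pools gave 4.72% ± 0.299 (SD, n = 3), with 4.503, 4.61 and 5.06% in the separate pools, and young wild-type pools 3.27% ± 0.286 (3.21, 3.58 and 3.02%). Among pools labelled knockout, the old controls held 5.67, 5.47 and 5.85% and the young 3.63, 3.4998 and 3.503%. The highest shares were in old pools given resveratrol, at 6.90, 5.59 and 5.74% in wild type and 7.10, 6.28 and 6.35% in the knockout label. The groups of old wild type with and without resveratrol did not overlap, and neither did those of the old knockout label. These are pools of many cells, so fewer cells of a type and less RNA per cell cannot be told apart. The ratio of 60S to 40S counts kept to 1.45 to 1.69 over the 18 pools. In single oocytes the members took far less of the library, 0.0640 to 0.208% with a median of 0.104%, and 65 to 75 of them were detected. Reads of some members can also match transcripts of other genes, pseudogene copies among them, and no source here says how the authors counted such reads. Of the 150-base windows of Rps27, 98.0% occur in another gene's transcript of any kind, and of those of Rpl5, 88.2%. Annotated pseudogenes held 0.018% and 0.745% of the granulosa counts of these 2 genes with their pseudogenes. For Rps2 that share was 39.2%, the highest of the members. Adding the counts of annotated ribosomal protein pseudogenes, 0.0849 to 0.295% of granulosa counts, moved the share of the old knockout label to 5.91%.

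**Figure D1:**
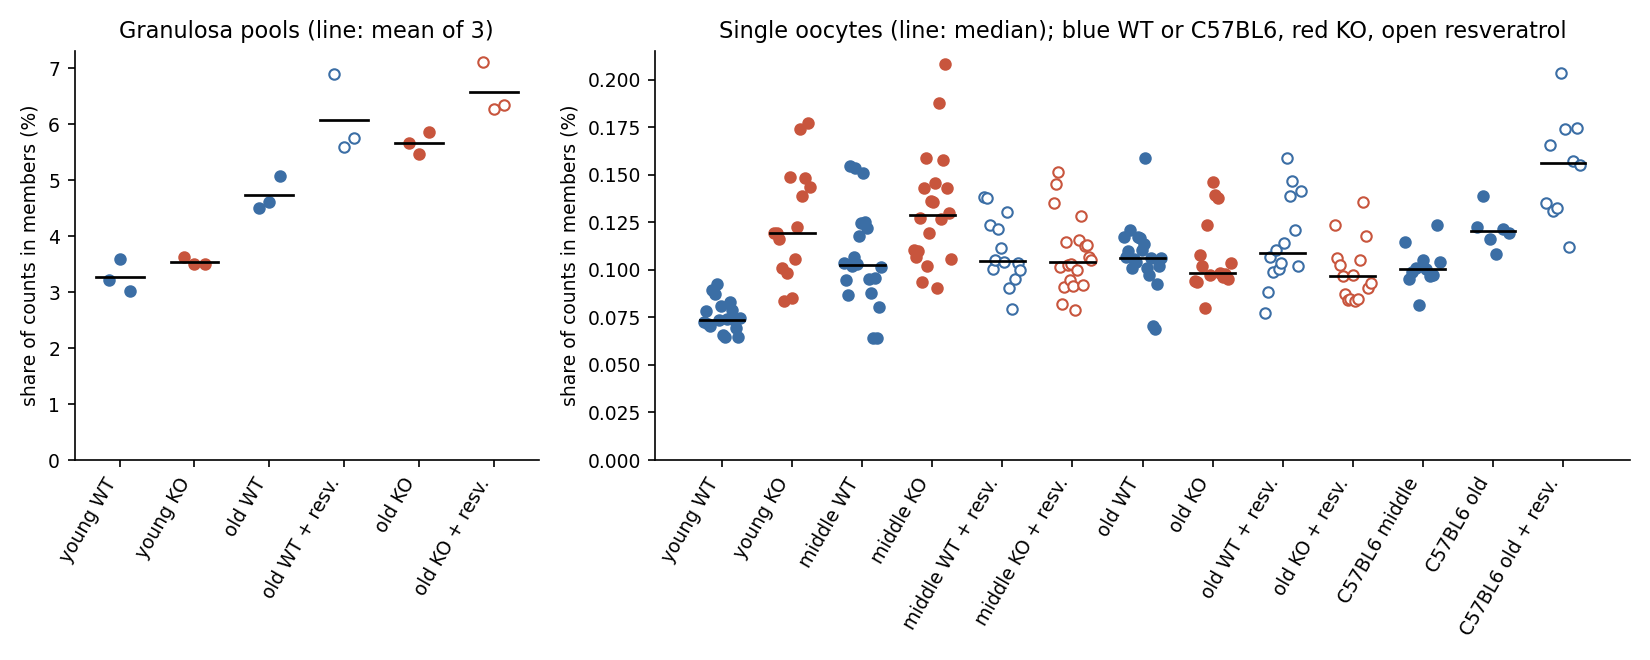
Share of all counts (%) that fell on the 75 ribosomal protein genes, each point a library; the left panel shows granulosa pools with the mean of 3, the right panel single oocytes with the group median, and the scales differ. Old granulosa pools lie at 4.503 to 7.10%, above the young pools at 3.02 to 3.63%, and no oocyte of the C57BL6/129 background exceeds 0.208%.

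Compared per length, as transcripts per 1000000 (TPM) over the union of each gene's exons, members stood at a median of 683 TPM in granulosa pools, 11.1 TPM in oocytes and 12.3 TPM in C57BL6 oocytes. The highest in granulosa pools was Rpl41, the smallest ribosomal protein, at 4296 ± 1074 TPM (SD over 18 pools), followed by the stalk genes Rplp1 (3729 ± 754) and Rplp0 (3721 ± 801), which help recruit translation factors. Those 3 levels lie within their SDs of each other. The SDs span pools of all ages, labels and treatments, and the order of genes within single pools was not examined. Rps29, a small zinc-binding protein of the 40S head, had 3371 ± 1015 TPM and Rpl36 3075 ± 765 TPM. At the low end were Rpl21 (140 ± 33.5), Rpl22 (131 ± 32.9), Rps12 (111 ± 26.3) and Rpl12 (105 ± 18.3 TPM), whose spreads over the pools overlap. Rpl29 averaged 38.9 ± 64.9 TPM, a value set by young knockout replicate 1; over the other 17 pools it was 23.7 ± 5.44 TPM, the lowest member in all 17.

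Oocytes ordered the members differently. There Rps2, a 40S protein near the messenger RNA entry, led at 151 ± 96.6 TPM (SD over single oocytes), ahead of Rpl32 (129 ± 47.7), Rpl15 (120 ± 21.5), Rpl17 (107 ± 47.9) and Rplp1 (107 ± 70.6). The lowest were Rps19 at 1.93 ± 3.23 TPM, Rpl30 at 1.71 ± 1.38, Rpl9 at 0.903 ± 2.00, Rpl12 at 0.900 and Rpl29 at 0.666. By rank of level among the 75, Rps27 was 6th in granulosa pools and 51st in oocytes, Rps19 36th and 71st, Rpl23a 11th and 45th, and Rpl7 32nd and 66th. The opposite held for Rps15a (70th and 16th), Rpl17 (53rd and 4th), Rplp2 (56th and 10th) and Rpl22 (72nd and 33rd). Across genes, Spearman's rho between the granulosa and oocyte levels was 0.53 (0.36 with the length of the principal transcript), against 0.96 between the oocytes of both backgrounds; these are descriptions over 75 genes measured in the same libraries and scaled by the same lengths. In CPM, the excess of granulosa pools over oocytes ran from 5.41-fold for Rps15a (503 against 93.0 CPM) to 788-fold for Rpl9 (656 against 0.832 CPM), with a median of 89.0-fold. The value for Rpl9 rests on the middle-aged knockout oocytes, part of which held granulosa transcripts (described with the oocytes). Its medians were 4.35 CPM in their controls and 0.739 CPM with resveratrol, and 0 to 0.229 CPM in the other 8 groups. Without those 40 oocytes its excess was 3695-fold and the members' median 93.5-fold (an alternative chosen after seeing the data). The low end of the oocyte levels also changed without them. Rpl9 then had a mean of 0.204 TPM, Rpl3 0.556, Rpl12 0.688 and Rpl29 0.739, with spreads over single oocytes that overlap. Rpl29 was thus not the lowest there, and the oocyte levels and ranks given above include those 40 oocytes.

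**Figure D2:**
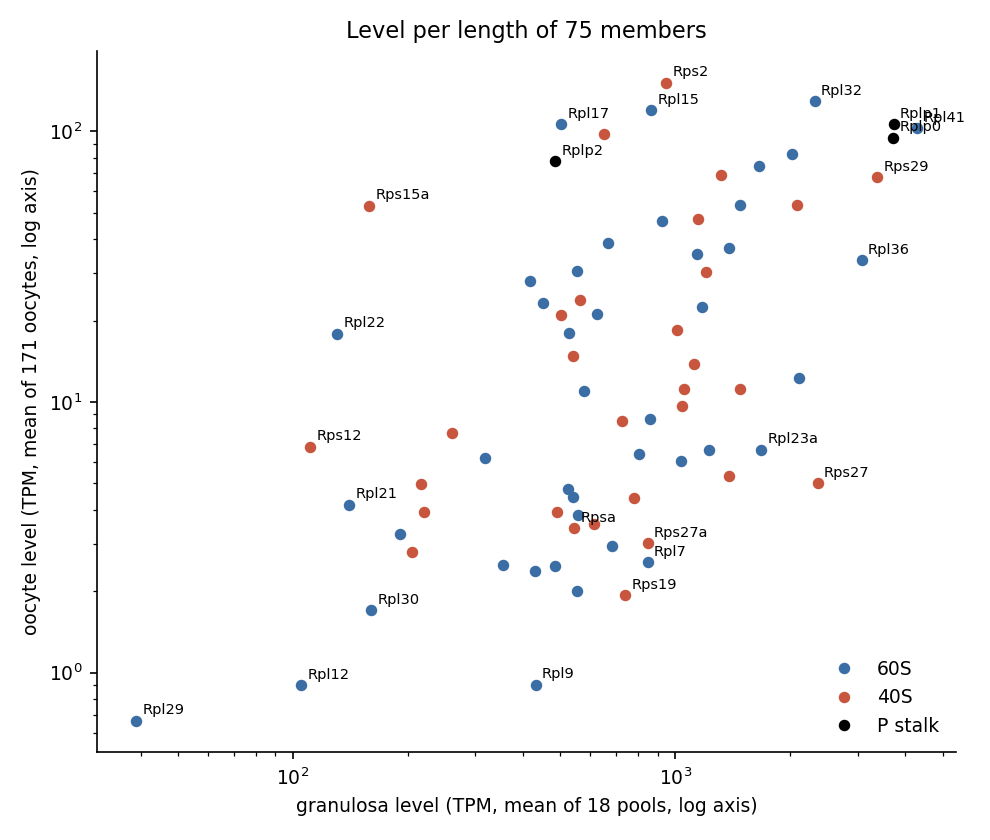
Level per length (TPM, exon union) of each of the 75 genes in oocytes (mean over single oocytes) against granulosa pools (mean of 18), both on log axes, coloured by subunit. Rpl41, Rplp1 and Rplp0 lie highest in granulosa pools, Rps2 highest in oocytes, and Rpl29 lowest in both. The oocyte means include the middle-aged knockout oocytes, and without them Rpl9, Rpl3 and Rpl12 had lower means than Rpl29.

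With age in wild-type granulosa pools, 73 of the 75 members had a positive log2 difference (old minus young), at a median of 0.49, but only 3 passed the test and none fell. The test was edgeR's quasi-likelihood test over 17558 genes with Benjamini-Hochberg adjustment, the threshold 0.05, and 1.53% of all genes were called, 0.843% higher. Rps27a, which is made fused to ubiquitin, read 248, 304 and 392 CPM in young pools and 641, 696 and 666 CPM in old ones. The old pools all lay above the young; the log2 difference was 1.09 ± 0.26 (SE; edgeR adjusted p = 0.0393). Rpl3, a protein of the peptidyl transferase centre, went from 612, 518 and 418 CPM to 856, 851 and 957 CPM, a log2 difference of 0.78 ± 0.17 (edgeR adjusted p = 0.0197). Stalk genes Rplp0, Rplp1 and Rplp2 gave 0.59, 0.48 and 0.36, and Rpsa, the laminin receptor protein of the 40S subunit, 0.31 (edgeR adjusted p from 0.172 to 0.401). Members below 0 were Rps2 (−0.21 ± 0.51) and Rpl29 (−0.08 ± 0.91).

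Groups of 3 pools did not overlap, with old above young, for 67 members, where 23.8% of all genes did the same. The median of all genes was itself 0.17 in this comparison, and it fell to 0.07 with the relative-log-expression scaling, under which the members' median was 0.38 and 1 member passed, with 1.25% of all genes called. Oocyte markers made up 0.00956 to 0.0248% of counts in the young wild-type pools and 0.000600% at most in the old groups, in all of which Zp2 was at 0. Macrophage and leukocyte markers were at 0.0150 to 0.0195% in old and 0.00813 to 0.0108% in young wild-type pools, and luteinized granulosa markers at 0.838 to 1.15% and 0.603 to 0.800%. Granulosa markers were lower in the old pools, at 0.261 to 0.266% against 0.349 to 0.425%. The part of these lists in the members' differences was not tested.

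In the knockout label the same comparison called 61 of 75 members higher and none lower, where 5.17% of all genes were called and 4.09% were called higher, and the median log2 difference was 0.87 against 0.10 for all genes. Members of both subunits rose: the 60S median was 0.82 and the 40S median 0.88. The lowest p belonged to Rpl37, a zinc-binding protein of the 60S core, at 288, 202 and 288 CPM in young and 715, 634 and 603 CPM in old pools (1.34 ± 0.20, edgeR adjusted p = 0.000712). Rpl39, a tiny protein lining the exit tunnel, had the largest called change, from 125, 136 and 204 CPM to 538, 468 and 318 CPM (1.52 ± 0.26, edgeR adjusted p = 0.0015). Rps27a rose by almost as much, from 196, 520 and 277 CPM to 1046, 969 and 841 CPM (1.501 ± 0.26, edgeR adjusted p = 0.00168). In each of these the 3 old pools lay above the 3 young ones, as they did for 65 members; 15.4% of all genes behaved so.

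Other small members were close behind. Rps29 rose by 1.396 ± 0.22 on the log2 scale (613, 317 and 624.6 CPM to 1486, 1260 and 1317 CPM), and Rps28, at the messenger RNA exit, by 1.298 ± 0.20 (207, 146 and 252 CPM to 516, 454 and 496 CPM). Rpl38, which affects translation of Hox messages, rose by 1.34 ± 0.23 and Rpl37a by 1.27 ± 0.20. The log2 rises of Rpl22, Rps27, Rpl26 and Rpl31 were 1.26, 1.16, 1.102 and 1.09. Of the stalk, Rplp2 rose by 1.08 ± 0.20 (edgeR adjusted p = 0.00298) and Rplp1 by 0.80 ± 0.21 (0.0262), while Rplp0 had 0.55 ± 0.21 and did not pass (0.146). The smallest called changes were Rps6, the substrate of S6 kinase, at 0.54 ± 0.16 (edgeR adjusted p = 0.048), Rpl19 at 0.57 ± 0.16 and Rps9 at 0.62 ± 0.18; Rpsa, at 0.51 ± 0.16, was just outside (0.0646). Below 0 were Rpl29 (−1.75 ± 0.64), Rps2 (−0.67 ± 0.51) and Rps18 (−0.07 ± 0.35), none of which passed.

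The count in the knockout label was 47 without the young pools below 1000000 counts (3.89% of all genes), which leaves 1 young pool, and 39 to 64 with any 1 pool left out (39 without young replicate 3 and 40 without old control replicate 1). With the 3 old pools low in Rps2 set aside, which leaves 1 old knockout control, 2 passed (0.378% of all genes). Fitted on these 2 groups alone, 3 passed (0.68% of all genes). Macrophage and leukocyte markers stood at 0.143 to 0.184% of counts in the old controls of the knockout label and at 0.00457, 0.0974 and 0.00681% in the young, with 17 of 18 markers tested and 8 called higher. Erythroid markers were at 0.161 to 0.216% in these old pools and 0.0262 to 0.0479% in the young. Granulosa markers stood at 0.231 to 0.252% and 0.258 to 0.683%, and oocyte markers at medians of 0.000256% and 0.0107%. The part of these lists in the members' rise was not tested. Tests of whether the age difference itself differed between genotype labels called no member in edgeR or in DESeq2 (0.137% of all genes in edgeR), although 14 had an unadjusted p under 0.05 and 68 a positive difference, with a median of 0.38. The lowest p values there were those of Rps25 (0.82 ± 0.27), Rpl37a (0.84 ± 0.28) and Rpl3 (−0.70 ± 0.24), each with an edgeR adjusted p of 0.439, and Rps28 (0.78 ± 0.29, 0.497).

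The size of the age difference in the knockout label went with the length of the coding sequence. The 25 members with the shortest coding sequences (75 to 405 bases) had a median log2 difference of 1.101, the middle 25 (405 to 564 bases) 0.89 and the longest 25 (576 to 1257 bases) 0.62, with a Spearman's rho of −0.72 across genes. Other genes in the same 3 length ranges had medians of 0.61, 0.35 and 0.12, so the order by length was there outside the ribosomal proteins too, at lower values. In wild type the members gave 0.55, 0.49 and 0.45 and other genes 0.47, 0.38 and 0.22, a smaller distance between members and other short genes. Length classes of the resveratrol difference in old wild type were 0.75, 0.63 and 0.54 for members and 0.51, 0.35 and 0.10 for other genes.

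**Figure D3:**
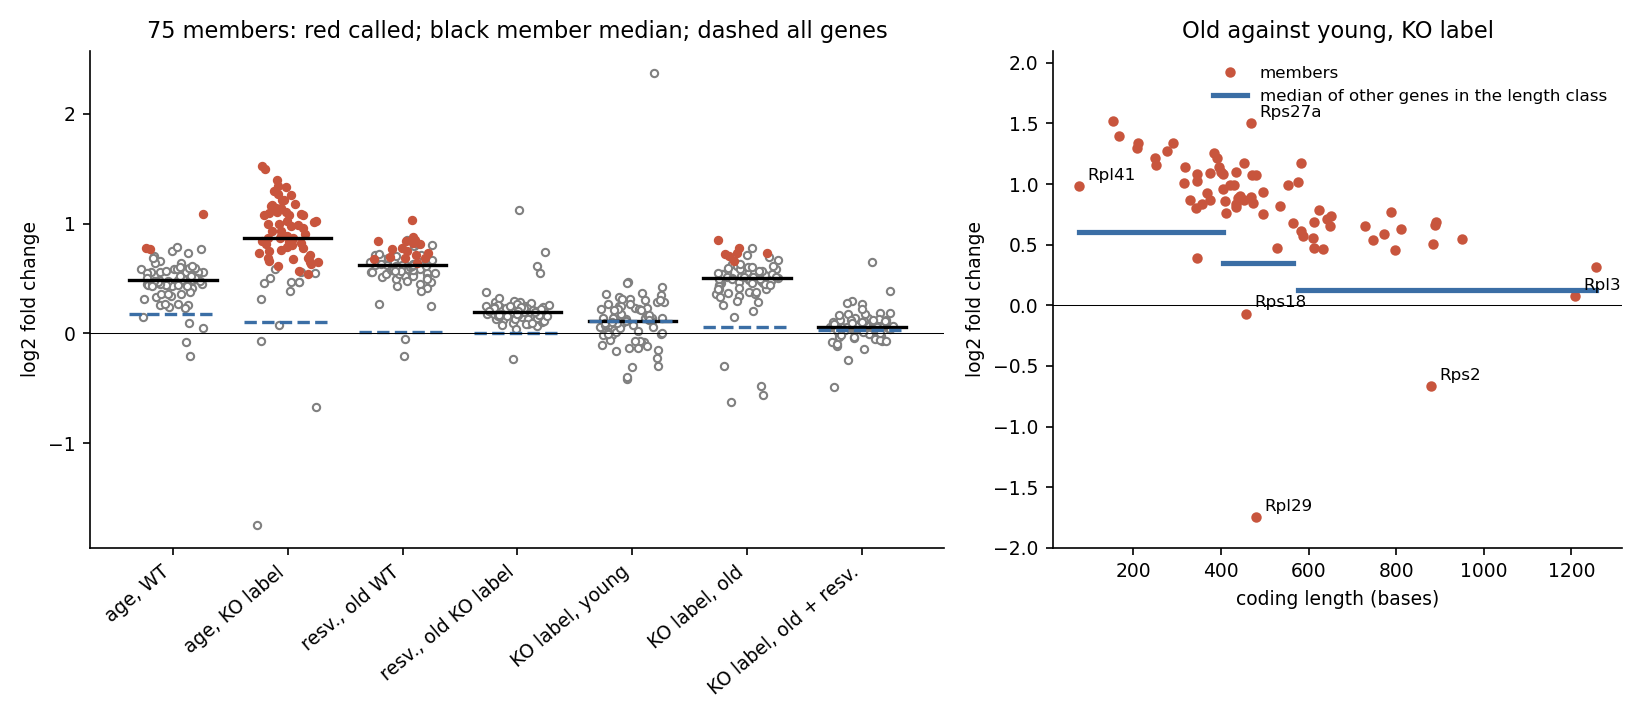
Left, log2 differences of the 75 genes in 7 granulosa comparisons, red where the edgeR adjusted p is under 0.05, with the member median (black line) and that of all genes (dashed); right, the difference between old and young pools of the knockout label against coding length, with medians of other genes in 3 length classes. The left panel shows 61 members called with age in the knockout label, 17 with resveratrol in old wild type and none with resveratrol in the old knockout label; on the right the shortest genes lie highest.

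Resveratrol in old wild-type mice went with higher levels of ribosomal protein messages: 73 of 75 members had a positive log2 difference (resveratrol minus control), the median was 0.62 against 0.01 for all genes, and 17 passed the test, where 1.62% of all genes were called and 1.17% were called higher. No member was called lower. The old wild-type controls are those of the age comparison in wild type, so the comparisons share 3 pools. Rps13, a 40S protein of a bridge between the subunits, read 170, 183 and 208 CPM in controls and 484, 328 and 339 CPM with resveratrol (1.03 ± 0.20, edgeR adjusted p = 0.0231). Rplp2 went from 316, 315 and 354 CPM to 683, 536 and 548 CPM (0.84 ± 0.20, edgeR adjusted p = 0.0369). Rpl37a had 525, 527 and 626 CPM in controls and 1202, 799 and 948 CPM in treated pools (0.81 ± 0.19, edgeR adjusted p = 0.0401). In all 3 the treated pools lay above the controls, with replicate 1 of the treated pools the highest.

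Also called were Rpl19 (0.69 ± 0.16, edgeR adjusted p = 0.038) and, each at an adjusted p of 0.044, Rpl41 (0.82), Rps21 (0.84), Rps29 (0.88), Rpl37 (0.77), Rpl11 (0.68) and Rpsa (0.64). Rpl11 belongs, with Rpl5, to the 5S particle that can bind Mdm2. Rplp1 missed the threshold (0.79 ± 0.21, edgeR adjusted p = 0.0505), as did Rplp0 (0.41 ± 0.21) and Rps27a (0.63 ± 0.25, 0.191), at 1254, 909 and 947 CPM with resveratrol. Members below 0 were Rpl30 (−0.20 ± 0.26) and Rpl3 (−0.05 ± 0.16), which stood at 920, 833 and 815 CPM with resveratrol against 856, 851 and 957 CPM. Groups did not overlap, treated above control, for 73 members, where 17.6% of all genes behaved so. The count of calls moved widely with the method, and so did the share of all genes called. DESeq2 called 51 members (8.86% of all genes), these 2 groups alone gave 62 (11.3%), the relative-log-expression scaling 1 (0.94%) and thinning of all pools to 470647 counts 0 (0.039%). With any 1 pool left out 0 or 1 passed, and the members' median under that scaling was 0.58. Macrophage and leukocyte markers were at 0.0251 to 0.0409% in the treated pools and 0.0150 to 0.0195% in the controls, with 6 called higher and 1 lower, and their part was not tested.

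In the old knockout label resveratrol gave no called member in edgeR or in DESeq2 (0.0285% of all genes in edgeR), and 4 members had an unadjusted p under 0.05. A positive log2 difference was seen in 74 members, at a median of 0.19. Rps18, of the 40S head, had the lowest p, at 176, 146 and 658 CPM in controls and 885, 635 and 615 CPM with resveratrol; control replicate 3 lay inside the treated range (1.123 ± 0.35, edgeR adjusted p = 0.783). Rpl30 was at 195, 171.2 and 156 CPM and 214, 298 and 363 CPM (0.74 ± 0.26), and Rpl35a differed by 0.55 ± 0.19. Stalk genes Rplp0, Rplp1 and Rplp2 gave 0.32, 0.12 and 0.13, Rps27a 0.13 and Rpsa 0.09. Groups did not overlap, with treated above control, for 12 members (4.98% of all genes). Macrophage and leukocyte markers were at 0.0440 to 0.102% in the treated pools and 0.143 to 0.184% in the controls, and their part was not tested.

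Whether resveratrol acted differently by genotype label was tested with an interaction term, which called no member in edgeR or in DESeq2 (0.159% of all genes in edgeR), with 17 at an unadjusted p under 0.05. The difference, knockout label minus wild type, was above 0 in 4 members and had a median of −0.43, against −0.03 for all genes. Rps13 (−0.95 ± 0.28, edgeR adjusted p = 0.272), Rpl30 (0.95 ± 0.36, 0.48), Rps29 (−0.79 ± 0.31, 0.496) and Rplp2 (−0.71 ± 0.28, 0.496) had the lowest p.

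Between old controls, the knockout label exceeded wild type for 7 members, with 3.86% of all genes called and 2.83% called higher, and a median log2 difference of 0.50 against 0.06 for all genes; 71 were above 0. These controls are shared with the age and resveratrol comparisons. Rps13 read 357, 361 and 294 CPM in the knockout label against 170, 183 and 208 CPM in wild type (0.85 ± 0.20, edgeR adjusted p = 0.0182). For Rplp2 the knockout label gave 539, 506 and 591 CPM (0.73 ± 0.20, edgeR adjusted p = 0.0361), and for Rpl41 2821, 2573 and 2819 CPM against 1673, 1507 and 1764 CPM (0.73 ± 0.20, 0.0405). Rpl37a (0.72), Rpl37 (0.71), Rps29 (0.78) and Rpl24 (0.66), which lies at the interface of the subunits, were also called. Pools did not overlap for 66 members with the knockout label above (16.7% of all genes) and for 1 with it below (11.1% of all genes): Rpl3, at 627, 624 and 663 CPM against 856, 851 and 957 CPM (−0.48 ± 0.16, edgeR adjusted p = 0.111). Rps2, Rps18 and Rpl30 were the other members below 0.

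Without the 3 pools low in Rps2 no member was called (0.626% of all genes); this leaves 1 old knockout control, assumed to vary like the other groups. Thinning to equal depth also gave 0 (1.92% of all genes), and 0 to 4 were called with any 1 pool left out. DESeq2 called 18 members higher and 1 lower, with 5.99% of all genes called. In the same pools 14 of 17 macrophage and leukocyte markers were called higher in the knockout label, and the luteinized granulosa markers stood at 0.438 to 0.533% of counts in the old knockout label and 0.838 to 1.15% in old wild type; the part of either was not tested. Between old pools given resveratrol, the labels gave no called member in edgeR or in DESeq2 (1.07% of all genes in edgeR), 1 with an unadjusted p under 0.05, and a median of 0.06. The lowest p were those of Rpl30 (0.65 ± 0.26), Rps7 (0.39 ± 0.20) and Rpl21 (0.30 ± 0.18), and 0 members separated the groups with the knockout label above (10.5% of all genes). In young pools the labels gave no called member in edgeR or in DESeq2 (0.114% of all genes in edgeR), 3 with an unadjusted p under 0.05, and a median of 0.11 against 0.12 for all genes; Rpl29 (2.37 ± 0.87) and Rpl13 (0.47 ± 0.21) were among those with the lowest p. The young groups did not overlap for 8 members with the knockout label above (5.47% of all genes) and for 1 with it below (3.58%).

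A few members varied apart from the rest. Rps2 (chr17:24718116-24721929) read 149 and 164 CPM in old knockout controls 1 and 2 and 191 CPM in old knockout resveratrol replicate 1, while the other 9 old pools held 609 to 1012 CPM. Rps18 (chr17:33951999-33956001) was at 176 and 146 CPM in the same old knockout controls, but at 885 CPM in resveratrol replicate 1, the highest of all pools. Without those 3 pools, the log2 difference between labels in old controls was 0.51 for Rps2 and 0.40 for Rps18, and their sign thus depended on these libraries. Rpl29 (chr9:106429454-106431568) had 138 CPM in young knockout replicate 1 and 6.29 to 18.3 CPM in the other 17 pools. Over the 12 old pools the coefficient of variation was largest for Rps2 (49.3%), Rps18 (39.3%), Rps13 (30.9%) and Rps15a (29.6%) and smallest for Rpl4 (8.07%), Rpl3 (13.9%), Rpl5 (13.9%) and Rps3 (15.6%). For Rps2, 44.8% of 150-base windows occur in other transcripts, and 36.6% for Rpl29. Annotated pseudogenes held 39.2% of the granulosa counts of Rps2 and its pseudogenes together, and 0.664% for Rpl29. How far reads of copies bear on either gene's values was not tested.

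Genes around the ribosome were read from lists of its partners. With age in the knockout label, 5 of 7 tested ribosomal protein paralogs rose, among them Rpl22l1 (1.35), Rps27rt (1.13), Rpl36al (1.08) and Rps27l (0.97), and the list had a median of 1.08. Of 23 other messages with a 5′ TOP motif, 3 rose: Btf3 (0.85) and Naca (0.72), both of the nascent-chain complex, and Tpt1 (0.73); the median was 0.41. Mitochondrial ribosomal proteins rose in 12 of 77 cases, led by Mrps36, Mrpl33, Mrpl20 and Mrpl42 (1.34, 1.22, 1.01 and 0.89), with a median of 0.43. Ribosome biogenesis factors gave 2 of 36 (Nop10, 1.34, and the methyltransferase Fbl, 1.04) and a median of 0.18. Subunits of RNA polymerases I and III gave 1 of 27 (Polr2f, 0.87). In this comparison 4.09% of all genes were called higher, and the counts of biogenesis factors and polymerase subunits are near that share. No gene was called by edgeR among 20 regulators of ribosomal protein synthesis (median −0.02, 3 at an unadjusted p under 0.05), 24 initiation and elongation factors (0.16, with 6) or 11 quality control factors (0.04, with 0).

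With age in wild type, 3 of 77 mitochondrial ribosomal proteins (Mrps18c at 1.22, Mrpl24 and Mrpl40) and 2 of 36 biogenesis factors (Nhp2 at 0.91 and Ddx51 at 2.64) rose. Of all genes 0.843% were called higher there. No paralog and no other TOP message was called by edgeR (4 of 7 and 6 of 23 at an unadjusted p under 0.05). With resveratrol in old wild type, 5 of 77 mitochondrial ribosomal proteins, Mrpl41 and Mrpl20 (0.88 each) among them, and the paralog Rpl36al (0.77) rose. Of all genes 1.17% were called higher there. Medians were 0.50 for mitochondrial ribosomal proteins, 0.31 for other TOP messages and −0.13 for biogenesis factors. Between labels in old controls the calls were Pabpc1 (0.67 ± 0.18) of the 23 other TOP messages and the paralogs Rpl36al (0.83) and Rps4l (2.08) of 7. Also called were 4 of 77 mitochondrial ribosomal proteins and, lower in the knockout label, Polr2k (−1.07) of 27 polymerase subunits. Of all genes 3.86% were called there, and the counts of mitochondrial ribosomal proteins, other TOP messages and polymerase subunits are near that share.

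The genes outside the family whose log2 CPM followed the members' mean most closely over the 18 granulosa pools were Tlcd1, Sem1, Polr2f, Cox17 and Ndufa7, each with a Pearson correlation of 0.97 among 2891 candidates at 50 CPM or more. The members' own median was 0.96. Tlcd1 overlaps Rpl23a on the opposite strand, and Ndufa7 starts beside Rps28; no source here states whether counting used strand, and reads of such neighbours cannot be told apart. Over the 10 oocyte sums the closest were Ypel2 (0.85), Zcchc17 (0.83), Rrp1b (0.80), Tmed10 (0.77) and Gnb1 (0.77), where the members' own median was 0.78.

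In the oocytes of the C57BL6/129 background, no member passed the test in any of 6 comparisons. Counts were summed per group and the 10 sums fitted with genotype, age and treatment in edgeR, over 20806 genes. Knockout sums had 64 members above wild type, at a median log2 difference of 0.37, with 22 at an unadjusted p under 0.05 and 0.139% of all genes called; DESeq2 called 11 members, with 2.92% of all genes called. Summed instead by the number in the column header, whose meaning is not given (an alternative chosen after seeing the data), 21 members were called here (8.44% of all genes) and 14 in middle-aged against young oocytes (3.52%). Rps27a had the lowest p (1.00 ± 0.21, edgeR adjusted p = 0.0887), followed by Rps9 (0.96 ± 0.23) and Rps7 (0.77 ± 0.18). The ranges of single oocytes overlapped, although the knockout medians lay above the highest young wild-type oocyte for both genes that follow. Rps27a ran from 0 to 1.54 CPM with a median of 0.668 in young wild type and from 0.451 to 4.57 CPM with a median of 1.603 in young knockout. Rps9, a 40S protein that helps decoding fidelity, had lowest, median and highest values of 1.36, 3.26 and 8.83 CPM in young wild type, and 2.45, 17.5 and 30.3 CPM in young knockout.

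The difference between genotypes was not even across groups. Its median over members was 0.84 in young oocytes (72 above 0), 0.55 in middle-aged controls, 0.25 in middle-aged oocytes given resveratrol, 0.08 in old controls and −0.08 in old oocytes given resveratrol. Many members are low in oocytes. Over those at 10 CPM or more in either sum, the medians in the same order were 0.61, 0.26, −0.09, 0.03 and −0.02. In middle-aged oocytes given resveratrol the sign thus changed. Each of these medians compares 1 sum with 1 sum and has no test. In the knockout groups the share of counts in members had medians of 0.120% in young, 0.129% in middle-aged control and 0.0983% in old control oocytes. In wild type it was 0.0737, 0.102 and 0.106%.

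With age, middle-aged sums lay above young ones for 65 members (median 0.41), with no gene of any kind called by edgeR (0% of all genes) and 15 members at an unadjusted p under 0.05; DESeq2 called 1 (0.646% of all genes). Rps27 (2.44 ± 0.63) was among those with the lowest p, with an edgeR adjusted p of 0.502. Old against young gave 64 members above 0, a median of 0.32 and 3 at an unadjusted p under 0.05, with 0.00481% of all genes called and no member called by DESeq2. Among controls, 1 sum against 1 sum with no test, the old minus young median was 0.71 in wild type (70 above 0) and −0.01 in knockout (35 above 0). Rps4x (0.84 ± 0.27) and Rps9 (0.95 ± 0.34) were among those with the lowest p. Old against middle-aged had 25 above 0, a median of −0.13, 8 at an unadjusted p under 0.05 and 1 call in DESeq2 (4.47% of all genes), where 0.00481% of all genes were called by edgeR. Rps26 (0.66 ± 0.20), Rps18 (−0.90 ± 0.30) and Rpl41 (−1.38 ± 0.45) led that comparison.

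Resveratrol against control gave 21 members above 0, a median of −0.13, and none called by edgeR (0% of all genes) or DESeq2, or at an unadjusted p under 0.05. Rps27a (−0.51 ± 0.23), Rps2 (−0.65 ± 0.29) and Rps27 (−0.91 ± 0.43) came closest. Rps2 had medians of 137 CPM in middle-aged wild-type controls and 47.6 CPM with resveratrol, and of 97.9 and 49.5 CPM in old wild type, with overlapping oocytes in both. The interaction of resveratrol with genotype had 4 members above 0, a median of −0.46 and 6 at an unadjusted p under 0.05, with none called by edgeR (0% of all genes) and 1 by DESeq2 (0.0562%). Rpl41 (−2.18 ± 0.46), Rplp1 (−1.43 ± 0.34), Rpl39 (−1.15 ± 0.40) and Rps28 (−1.04 ± 0.36) had the lowest p. In wild type the median of Rpl41 was 23.6 CPM in middle-aged controls and 94.99 CPM with resveratrol, and 10.6 and 34.7 CPM in old mice. In the knockout it was 26.1 and 27.01 CPM, and 12.3 and 5.83 CPM.

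Granulosa transcripts were present in part of the middle-aged knockout oocytes, although cumulus cells had been removed from all oocytes with hyaluronidase per the labels. Inha, which encodes the inhibin alpha subunit secreted by granulosa cells, was at 1 CPM or more in 15 of 20 middle-aged knockout controls (lowest 0.163, median 16.8, highest 120 CPM) and in 8 of 20 given resveratrol (median 0.270, highest 59.0 CPM). Outside these groups 1 old wild-type control oocyte had 16.9 CPM and the rest were at or below 0.877 CPM. Fst was at 1 CPM or more in 16 and 3 of the 20, and the gap junction gene Gja1 in 17 and 9. Members that are low in other oocytes stood higher there: Rpl3 had a median of 6.48 CPM and a highest value of 26.3 CPM in middle-aged knockout controls, and medians of 0 to 0.458 CPM in the 8 groups of other ages or genotype. For Rps27 the medians were 5.41 CPM in middle-aged knockout controls and 1.49 CPM with resveratrol, and at most 0.692 CPM in the other 8 groups.

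All 24 oocytes with 1 CPM or more of Inha also had 1 CPM or more of Rpl3, Rpl9, Rps19, Rps27 and Rpsa. Without Inha at that level, 18 oocytes had Rpl3, 9 had Rpl9, 44 had Rps19, 22 had Rps27 and 105 had Rpsa. Rps15a, the member least in excess in granulosa pools, had a median of 66.7 CPM in middle-aged knockout controls, within the range of medians of the other groups (56.9 to 128 CPM). Without the middle-aged knockout sums, the members' median was 0.25 for knockout against wild type, −0.07 for middle-aged against young, 0.28 for old against young and 0.24 for old against middle-aged, and no member was called. This fit leaves middle-aged wild type alone as the middle age, and both comparisons with middle-aged oocytes had the opposite sign in it. In wild-type controls alone, however, 1 sum against 1 sum with no test, middle-aged against young had 69 members above 0 and a median of 0.52. The part of granulosa transcripts in the members' levels was not tested.

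**Figure D4:**
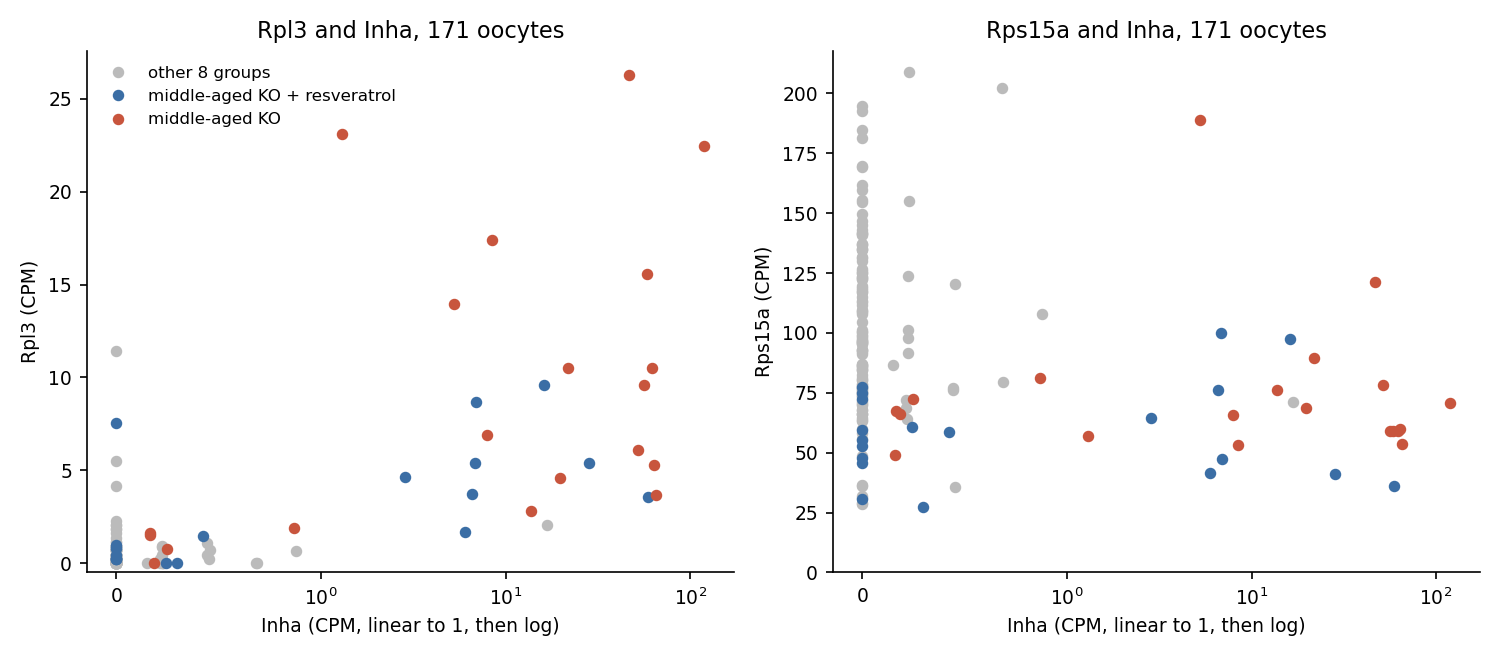
Rpl3 (left) and Rps15a (right) in CPM against Inha in CPM (linear to 1, then log) in each oocyte of the C57BL6/129 background, with the middle-aged knockout groups coloured. The highest Rpl3 value, 26.3 CPM, is in a middle-aged knockout control with Inha, and the highest of the 8 other groups is 11.4 CPM; the highest Rps15a value, 209 CPM, is outside the coloured groups.

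C57BL6 oocytes were read as 1 sum per group, without a test, because the labels name no animal; a member was called past a 1.5-fold difference at 10 CPM or more in either sum, and the intervals (95%) cover counting error only. Between old and middle-aged controls, 12 of 30 members passed higher, where 17.9% of all genes did, and 1 lower, where 10.9% did; the median log2 ratio was 0.41 against 0.04 for all genes. Over these 30 members the 60S median was 0.58 and the 40S median −0.14. The ratio of 60S to 40S counts, taken over all members without that level rule, was 0.910 to 1.16 in single middle-aged oocytes. It was 1.31 to 1.61 in old ones, with no overlap. Of the 12 that passed higher, Rpl19, Rpl35, Rpl41, Rplp1, Rps4x, Rps24 and Rps29 reached 10 CPM only in the old sum. The count and the medians of all, 60S and 40S members thus include members admitted by the group in which they were higher. The same rule was used for all genes.

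Rpl17, a protein at the exit tunnel, led with lowest, median and highest values of 11.5, 17.0 and 18.9 CPM in middle-aged and 81.0, 102 and 125 CPM in old controls (2.81, interval 2.697 to 2.93). Rpl19 went from 0.574, 2.21 and 3.099 CPM to 5.92, 9.04 and 16.2 CPM (2.44, interval 2.12 to 2.795), and Rps24 from 1.93, 4.18 and 7.53 CPM to 14.97, 18.5 and 22.8 CPM (2.06, interval 1.84 to 2.295). Rpl5, a partner of the 5S RNA, went from 9.22, 14.3 and 22.2 CPM to 30.2, 44.3 and 62.4 CPM (1.59), and Rpl11 had 1.24. In these 5 members no old oocyte overlapped a middle-aged one, and 5.79% of all genes at this level separated the same way. Rpl17, Rpl5 and Rpl11 reached the level in both sums. Rpl19 (1.97 CPM in the middle-aged sum and 10.7 CPM in the old) and Rps24 (4.58 and 19.2 CPM) reached it only in the old sum. Those were thus admitted by the group in which they were higher, under a rule that was the same for all genes. The lowest ratios were those of Rplp2 (−0.69, interval −0.80 to −0.59; 31.0, 45.8 and 72.4 CPM to 24.4, 29.8 and 33.0 CPM), Rplp0 (−0.56) and Rps16 (−0.51), with overlapping oocytes for Rplp2 and Rplp0. Inha was at most 0.574 CPM in these oocytes.

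With resveratrol in old C57BL6 mice, 6 of 33 members passed higher (3.7% of all genes) and none lower (2.55%), with 32 above 0 and a median of 0.26 against −0.02 for all genes. These members were at 10 CPM or more in either sum, so some may have been admitted by the group in which they were higher. The same rule was used for all genes, whose share above 0 was not counted. Rplp1 had the highest ratio, from 5.00, 10.97 and 16.6 CPM in controls to 11.7, 21.8 and 48.1 CPM (1.03, interval 0.88 to 1.18). Others that passed were Rps29 (0.66), Rpl32 (0.64), Rps9 (0.64) and Rpl41 (0.59). No member separated the single oocytes of these groups (0.295% of all genes did so with treated above), and 3 members passed without old control oocyte 4. The lowest ratios were those of Rpl17 (−0.12), Rpl19 (0.00) and Rps16 (0.00). Rpl29 reached 4.44, 2.65 and 3.37 CPM in the C57BL6 sums, against 0.0622 to 0.956 CPM in the group sums of the C57BL6/129 background. Background strain and sequencing of these tables cannot be told apart.

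**Figure D5:**
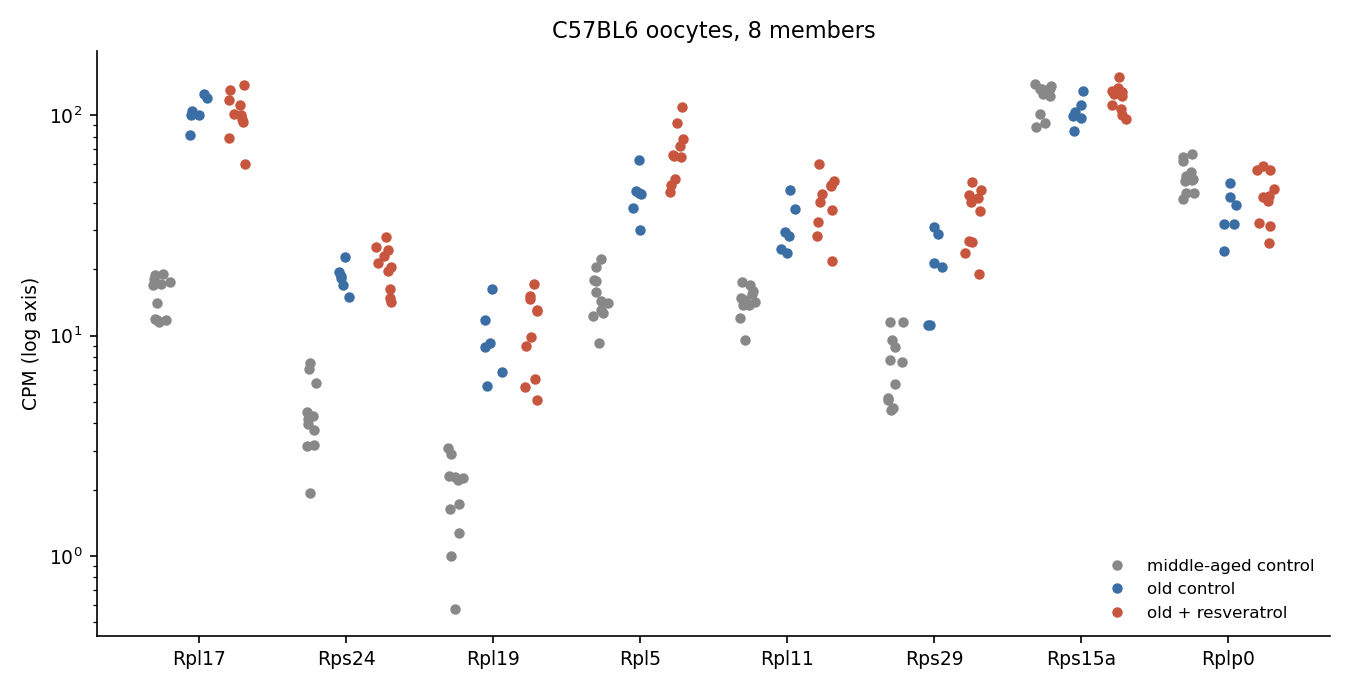
Levels (CPM, log axis) of 8 ribosomal protein genes in single C57BL6 oocytes: 11 middle-aged controls, 6 old controls and 10 old given resveratrol, each point an oocyte. For Rpl17, Rps24, Rpl19, Rpl5 and Rpl11 the old controls lie above all middle-aged controls, and for all 8 genes the old groups with and without resveratrol overlap.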

How the data were processed

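RNA was sequenced by SMART-seq2 per the labels' protocols. The deposited tables hold raw counts per gene made by the authors, and the submitters' processing notes list mm10, featureCounts, HISAT2 2.1.0 and DESeq2 with no roles. Counting strand and the treatment of multi-mapping reads are not given in the sources used here. No column was unused (0). The members and gene lists were chosen with earlier results of these data known.

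CPM is counts over the library total. Genes were kept with edgeR's filterByExpr (minimum count 10), scaled by TMM and tested with edgeR 4.0.16 (glmQLFit, limma 3.58.1, R 4.3.3) over all groups of a tissue, 17558 genes in granulosa pools (12 residual degrees of freedom) and 20806 in 10 oocyte sums (5, or 4 for the interaction), with Benjamini-Hochberg adjustment over all genes at 0.05. DESeq2 1.42.0, the relative-log-expression scaling, no filter, thinning, left-out libraries and other fits were alternatives. Sums per header number (26), leaving out the middle-aged knockout sums or the 3 pools low in Rps2, levels without single libraries or groups, and principal-transcript length were chosen after seeing the data. C57BL6 groups were compared as sums with exact intervals. The fits were tested on simulated data. TPM used exon lengths of GENCODE mm10 models. Promoter windows are RefSeq's.

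Named members are the stalk genes, Rpsa, Rps27a, the called members with the lowest p and the largest and smallest changes, members of opposite sign, and extremes of level, rank and variation; some members that this rule picks are not reported here singly but stay in all counts and medians. Python 3.11.15 with numpy 2.4.6, pandas 2.3.3 and scipy 1.17.1 was used otherwise. Unassigned, with a title and a treatment tag that disagree, was 1 C57BL6 oocyte.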

Additional observations from a re-analysis of the deposited data

Results flagged for a closer look

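Of 28 series of values tested for a sample far from the others, each in a group of 4 to 10 C57BL6 oocytes, 5 held such a sample; chance flags about 1 in 20. In the old controls, the highest oocyte for Rps27a stood at 3.552 CPM with the next at 1.446 CPM, and for Rpsa at 3.789 CPM with the next at 1.409 CPM. In old oocytes given resveratrol, the highest values were 48.08 CPM for Rplp1 (next 30.81) and 54.55 CPM for Rplp2 (next 38.87), and the highest total was 1.097e+07 counts (next 6.947e+06). Outside the comparisons, the C57BL6 oocyte whose labels disagree on treatment had 0.1551% of its counts in ribosomal protein genes, above the highest old control at 0.1389%. No cause of any of these was tested.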

How the results depend on the processing

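Counts of called members and their medians were judged by unlike rules, so their moves cannot be compared. A median counted as moved when it shifted by the median SE of single members or more, or by a fixed step in C57BL6 oocytes. Over 17 comparisons that held in 4 of 159 leave-one-out fits and in 2 of 123 other alternatives. A leave-one-out fit dropped 1 granulosa pool, 1 C57BL6 oocyte or 1 whole oocyte sum. Counts moved by over 1.5 times, or to or from 0, in 25 of 159 and 31 of 123. Smaller shifts could still change a sign: with 1 oocyte sum left out, the median for old against young ran from −0.038 to 0.64. The cause of these moves was not tested. With the relative-log-expression scaling, 1 member was called with age in wild type (1.25% of all genes). It called 1 with resveratrol in old wild type (0.94%) and 1 between labels in old controls (3.54%). Without a filter on low counts the numbers were 14 with age in wild type (2.42% of all genes) and 11 with resveratrol in old wild type (1.67%). They were 1 with resveratrol in the old knockout label (0.407%), 1 between young labels (0.662%) and 2 between oocyte genotypes (0.65%). Fitting only the groups compared gave 12 with age in wild type (7.56% of all genes) and 3 with age in the knockout label (0.68%). It gave 62 with resveratrol in old wild type (11.3%) and 28 between old controls (7.11%). DESeq2 gave 51 with resveratrol in old wild type (8.86% of all genes), 19 between old controls (5.99%) and 11 between oocyte genotypes (2.92%). It gave 1 each for middle-aged against young oocytes (0.646%), old against middle-aged oocytes (4.47%) and the oocyte interaction (0.0562%). Without the 5 pools below 1000000 counts, resveratrol in old wild type had 48 calls (4.83% of all genes) and old controls 21 (6.46%). With thinning both had 0 (0.039% and 1.92% of all genes). Without the 3 pools low in Rps2 there were 2 calls with age in the knockout label and 0 between old controls. Sums of oocytes by the number in the column header, whose meaning is not given, had 21 calls between genotypes (8.44% of all genes). They had 14 for middle-aged against young (3.52%), 4 for old against young (12.4%) and 11 for old against middle-aged (15.9%). In the last 2 of these, members were called no more often than all genes.

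Leaving out 1 library at a time gave 0 to 1 calls with age in wild type, 39 to 64 with age in the knockout label (39 without young replicate 3 and 40 without old replicate 1), 0 to 1 with resveratrol in old wild type, 0 to 2 with resveratrol in the old knockout label (2 without control replicate 3), 0 to 1 between young labels (1 without knockout replicate 2), 0 to 4 between old controls and 0 to 1 for the granulosa interaction of resveratrol with label. Leaving out 1 oocyte sum gave 0 to 1 calls for old against young. In the C57BL6 groups, leaving out 1 oocyte gave 11 to 14 members for age and 3 to 7 for resveratrol (3 without old control oocyte 4). There a fold of 2 left 8 and 1. Without the 100 highest other genes in the total, the share of counts was 5.53% in young wild type, 5.76% in the young knockout label, 7.02% in old wild type, 9.14% in old wild type with resveratrol, 8.44% in the old knockout label, 9.46% with resveratrol there, 0.155% in oocytes and 0.189% in C57BL6 oocytes. With pseudogenes added it was 5.91% in the old and 3.69% in the young knockout label. The correlation of levels per length was 0.36 with principal transcripts.

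The log2 difference of Rpl29 reversed without young knockout replicate 1, to −0.25 between young labels (range with 1 pool left out −0.25 to 3.05) and to 0.86 with age in the knockout label (−2.47 to 0.86; 1.04 without the shallow pools), and to 0.025 with age in wild type without old wild-type replicate 2 (−0.22 to 0.025). Rps18 reversed with age in the knockout label to 0.085 without the shallow pools, 0.20 and 0.26 without old knockout controls 1 and 2 (range −1.122 to 0.26), and 0.89 without the 3 pools low in Rps2, which also gave 0.40 between old controls and −0.075 with resveratrol in the knockout label. Rps2 reversed without those pools to 0.51 between old controls and 0.46 with age.

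Whether replicate numbers pair the pools was not settled. Deviations from a mean of 3 pools sum to 0, which forces some negative correlations between groups, so these values cannot exclude pairing. Same-numbered pools correlated at −0.0472 at lowest with age in wild type and −0.0946 in the knockout label. Between labels they were all positive in old pools given resveratrol (0.150, 0.042 and 0.044) and in young pools (0.031, 0.035 and 0.019). In all the rest some were negative. With the replicate block the calls were 2 with age in wild type (1.2% of all genes) and 60 with age in the knockout label (4.73%). They were 1 with resveratrol in old wild type (0.609%), 5 between old controls (3.14%) and 0 in the other 5 granulosa comparisons. Of the 6 young pools 5 hold under 1000000 counts, and each oocyte group is 1 sum.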
